A study of Mus musculus with 2 samples.

Results

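The platelet-derived growth factor (PDGF) family consists here of 6 genes, the 2 receptors Pdgfra and Pdgfrb and the 4 ligands Pdgfa, Pdgfb, Pdgfc and Pdgfd. All 6 were present in both count tables, among 23906 genes in the brain library and 23156 in the lung library. The genes were taken by name as the members of the family, not by a threshold on their values. Single cells that expressed GFP under Nestin regulatory elements (Nes-GFP+) were sorted from adult mouse brain and from adult mouse lung and sequenced with a droplet kit that reads the 3′ ends of transcripts. The mice were about 6 weeks old, untreated and labelled C57BL/6, and the GFP transgene was shared by both groups. There was 1 library per tissue, so no difference between conditions or tissues could be tested. Each interval below is a 95% interval of counting error and says nothing of the spread between mice. Because cells entered only through the GFP gate, each level describes the Nes-GFP+ cells of a class and not that cell type in the whole tissue.

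PDGF ligands are secreted dimers that bind the receptor tyrosine kinases PDGFRα and PDGFRβ at the cell surface. PDGF-A acts through PDGFRα, whereas PDGF-B can bind both receptors. PDGF-C and PDGF-D are secreted in a latent form and are activated by proteolysis. In blood vessels, PDGF-B from endothelium recruits PDGFRβ-bearing pericytes. In the brain, PDGF-A drives the proliferation of oligodendrocyte progenitor cells (OPCs), for which PDGFRα is the classical surface marker. In the lung, PDGF-A from epithelium acts on PDGFRα-bearing fibroblasts that become alveolar myofibroblasts.

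Of the barcodes, 4151 of 4640 in brain and 5608 of 5981 in lung passed the filters, and the libraries shared 15 barcodes. The cells kept had a median of 4209 unique molecular identifiers (UMIs, each counting 1 captured transcript) in brain and 5585 in lung. Cells were clustered without the PDGF genes, and clusters were named from marker lists that held none of them. In brain this gave 836 quiescent neural stem cell (qNSC)-like, 107 activated neural stem cell (aNSC)-like, 1560 neuroblast (NB)-like, 229 OPC-like, 31 mature oligodendrocyte (mOL)-like, 118 ependymal-like, 329 endothelial-like, 169 mural-like, 66 fibroblast-like and 34 microglia-like cells. In lung it gave 2000 pericyte-like, 613 endothelial-like, 96 smooth muscle-like, 569 myofibroblast-like, 697 matrix fibroblast-like, 49 epithelial-like, 122 lymphocyte-like and 33 neural-like cells. Clusters without a name, which are given by number, took up 16.2% of the cells kept in brain and 25.5% in lung. The qNSC-like class contained cluster 2, led by Htra1, Cxcl14 and Cldn10, and cluster 7, led by genes such as Daam2, Grin2c and Mertk with no naming marker among its 10 leading genes. Several of these genes are known from astrocytes. Its cluster 5 was led by genes that included Thbs4 and Gfap. The lung myofibroblast-like cluster was led by genes that included the secretory epithelial genes Scgb3a2 and Scgb1a1. Its summed smooth muscle markers stood at 8671 CPM (counts of a gene or list scaled to the total UMIs of the class), against 11478 CPM for its own markers.

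The genes lie apart in the genome. Positions are given on GRCm38 (mm10). Pdgfra spans chr5:75152292-75198215 on the plus strand and Pdgfa chr5:138976014-138997370 on the minus strand. Pdgfb spans chr15:79995874-80014977 (minus), Pdgfc chr3:81036416-81214040 (plus) and Pdgfd chr9:6168584-6378850 (plus). The antisense gene 6330403L08Rik overlaps Pdgfa and had 46 UMIs over all brain barcodes and 199 over all lung barcodes. The sources used here do not state whether counting used strand. Below are RefSeq windows (GRCm38.p6) from 250 bases before to 50 after a gene start, for Pdgfra and Pdgfa, which are set apart below between OPC-like clusters, and for Pdgfd, a ligand of the endothelial side. They are written in the direction of the gene. Capitals mark GGGCGG (the GC box) and TATAAA (the TATA box), searched on both strands.
Pdgfra, chr5:75152001-75152300 (plus): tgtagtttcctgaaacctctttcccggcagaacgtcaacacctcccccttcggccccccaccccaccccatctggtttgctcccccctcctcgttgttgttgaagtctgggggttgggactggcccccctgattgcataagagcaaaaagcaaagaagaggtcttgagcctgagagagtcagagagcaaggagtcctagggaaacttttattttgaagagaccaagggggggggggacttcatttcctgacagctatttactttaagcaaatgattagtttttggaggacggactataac
Pdgfa, chr5:138994895-138995194 (minus): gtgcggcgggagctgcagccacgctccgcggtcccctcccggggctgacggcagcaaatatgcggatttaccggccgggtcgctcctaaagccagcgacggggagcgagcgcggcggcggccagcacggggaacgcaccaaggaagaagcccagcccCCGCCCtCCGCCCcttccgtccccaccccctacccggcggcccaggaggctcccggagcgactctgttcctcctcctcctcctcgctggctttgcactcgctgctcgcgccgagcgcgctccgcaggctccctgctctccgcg
Pdgfd, chr9:6168236-6168535 (plus): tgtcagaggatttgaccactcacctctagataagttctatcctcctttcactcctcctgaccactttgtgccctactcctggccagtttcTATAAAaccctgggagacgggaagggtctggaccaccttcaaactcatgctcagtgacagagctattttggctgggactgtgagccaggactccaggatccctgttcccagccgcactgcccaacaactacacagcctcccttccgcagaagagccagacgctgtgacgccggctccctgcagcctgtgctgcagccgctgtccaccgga
The table holds a second Pdgfa window, chr5:138994232-138994531 (minus), with 1 GC box and 24 CpG dinucleotides. The Pdgfa window printed held 2 GC boxes and 37 CpG dinucleotides, the Pdgfra window none and 5, and the Pdgfd window 1 TATA box and 8 CpG dinucleotides. Among all 32851 windows, 35.7% held a GC box and 13.6% a TATA box, and the median number of CpG dinucleotides was 7. These matches describe the letters only.

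Pdgfrb, which spans chr18:61045150-61085061 (plus), was highest, among named classes, in vessel wall cells in both tissues. It stood at 2895 CPM (95% interval 2742 to 3053) in brain mural-like cells, from 1353 UMIs, and at 2034 CPM (2007 to 2062) in lung pericyte-like cells, from 21256 UMIs. At least 1 Pdgfrb UMI was found in 99.4% of the mural-like and 99.2% of the pericyte-like cells, with medians of 8 and 10 UMIs per cell. Unnamed lung cluster 6, a shallow cluster led by haemoglobin genes, stood at 2518 CPM (2361 to 2683). Endothelial-like cells held 20.6 CPM (13.5 to 30.2) in brain and 61.3 CPM (53.4 to 70.1) in lung. The mural-like level was 140-fold (95.4 to 216) above the endothelial-like level in brain, and the pericyte-like level 33.2-fold (29.0 to 38.1) above it in lung. After each cell was thinned to 1000 UMIs, 90.2% of mural-like and 85.5% of pericyte-like cells kept a Pdgfrb UMI, against 1.26% and 4.76% of the endothelial-like cells. Lung pericyte-like cells were at 0.703 (0.665 to 0.743) of the level in brain mural-like cells, and tissue and library cannot be told apart in this or in any other ratio between the tissues.

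Part of the Pdgfrb in lung endothelial-like cells sat in few cells. The 23 cells of that class called as doublets (droplets with 2 cells) carried 154 of its 215 Pdgfrb UMIs. The other 590 cells held 61 UMIs, or 18.4 CPM (14.1 to 23.6). With called doublets removed before clustering, the lung ratio was 111-fold, and with no upper limit on genes per cell it was 19.99-fold. Lymphocyte-like cells held 120 CPM of Pdgfrb, of which 27 of 49 UMIs sat in 3 called doublets. Their summed macrophage markers stood at 3849 CPM, against 10371 CPM for their own markers. The 9 pericyte naming markers, summed, stood at 276 CPM in lung endothelial-like and 11609 CPM in pericyte-like cells. In brain endothelial-like cells the 26 Pdgfrb UMIs lay in 10 of 329 cells, with 15 of them in 1 cell, and the 11 called doublets carried none. In gates set by marker genes alone, the ratio of mural over endothelial cells was 436 in brain, and that of pericytes over endothelial cells 69.4 in lung.

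Pdgfb, the ligand for that receptor, had the reverse pattern. Brain endothelial-like cells held 340 CPM (309 to 374), and lung endothelial-like cells 161 CPM (148 to 175). Of all Pdgfb UMIs in the cells kept, 90.9% in brain and 90.5% in lung came from the endothelial-like class. Mural-like cells were at 8.56 CPM (2.33 to 21.9) from 4 UMIs and pericyte-like cells at 1.63 CPM (0.948 to 2.60) from 17 UMIs. Endothelial-like cells were thus 39.8-fold (15.4 to 147) above mural-like cells in brain and 98.9-fold (61.2 to 171) above pericyte-like cells in lung. In cells with over 1000 genes, the lung ratio was 52.7-fold. A Pdgfb UMI was found in 65.3% of brain and 50.6% of lung endothelial-like cells, against 0.8% of lung pericyte-like cells, at median depths of 3798, 5403 and 5300.5 UMIs. Between tissues, lung endothelial-like cells were at 0.473 (0.416 to 0.537) of the brain level. The lung clusters of this class differed among themselves. Cluster 4, led by Vwf and Lyve1, held 103 CPM (89.5 to 117), cluster 10, led by Scn7a and Ctla2a, 219 CPM (190 to 250), and cluster 17, led by Fabp4 and Rbp7, 322 CPM (270 to 383). Outside endothelium, 30 UMIs in 34 brain microglia-like cells gave 181 CPM (122 to 258), the only other named brain class above 10 CPM. In lung, 5 UMIs in 33 neural-like cells gave 28.4 CPM (9.21 to 66.2), and unnamed clusters 12 and 8 held 24.8 CPM (13.2 to 42.4) and 12.3 CPM (6.74 to 20.7).

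Pdgfd also lay on the endothelial side. It stood at 58.7 CPM (46.1 to 73.7) in brain and 49.6 CPM (42.5 to 57.6) in lung endothelial-like cells. The tissue ratio, 0.846 lung over brain (0.641 to 1.13), included 1. Pericyte-like cells held 3 Pdgfd UMIs and mural-like cells 1, so the endothelial-like level was 173-fold (58.2 to 846) higher in lung and 27.4-fold (4.77 to 1098) higher in brain. Lung smooth muscle-like cells were at 51.1 CPM (33.1 to 75.5), a ratio to lung endothelial-like cells of 1.03 (0.649 to 1.57). They were 178-fold (54.4 to 922) above pericyte-like cells from 25 and 3 UMIs. Matrix fibroblast-like cells held 11.9 CPM (9.19 to 15.1), brain fibroblast-like cells 28.1 CPM (14.04 to 50.3) and qNSC-like cells 12.3 CPM (8.80 to 16.8). No Pdgfd UMI was found in NB-like, OPC-like or aNSC-like cells. In the 1560 NB-like cells the interval reached 0.480 CPM.

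**Figure D1:**
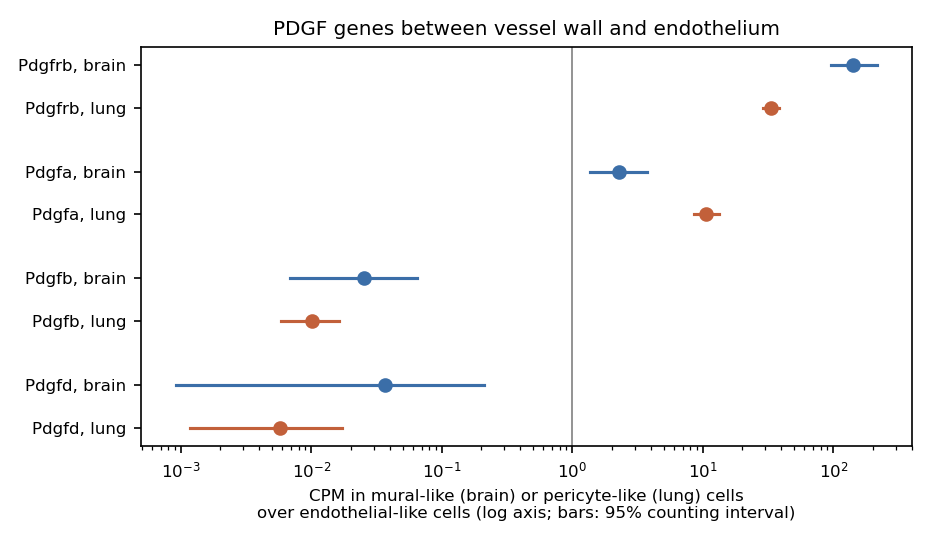
CPM in mural-like (brain, blue) or pericyte-like (lung, orange) cells over endothelial-like cells of the same library for 4 PDGF genes, on a log axis; points are ratios and bars 95% counting intervals, with 1 library per tissue. Pdgfrb and Pdgfa lie above 1 and Pdgfb and Pdgfd below 1 in both tissues.

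Unlike Pdgfb and Pdgfd, Pdgfa was higher in pericyte-like and mural-like cells than in endothelial-like cells. Lung pericyte-like cells stood at 275 CPM (265 to 286) and held 65.8% of the Pdgfa UMIs of the lung cells kept. That was 10.6-fold (8.61 to 13.2) above lung endothelial-like cells, at 26.0 CPM. In brain, mural-like cells, at 66.3 CPM (45.1 to 94.1), were 2.26-fold (1.36 to 3.74) above endothelial-like cells. The lung pericyte-like level was 4.15-fold (2.92 to 6.12) that of brain mural-like cells. Lung pericyte-like cells therefore carried Pdgfrb together with Pdgfa, and 69.7% of them had a UMI of both. With Pdgfrb in 99.2% of the cells, this share follows from that of Pdgfa. Within the class, cluster 7, led by mitotic genes such as Ccnb2 and Cenpa, was lowest for both, with 1607 CPM of Pdgfrb and 213 CPM of Pdgfa. Cluster 0 held 2041 and 286 CPM. Unnamed lung cluster 12, led by Rgs5 and Steap4, reached 431 CPM of Pdgfa (377 to 491), 1.56-fold (1.36 to 1.79) above pericyte-like cells, with Pdgfrb at 1051 CPM, or 0.516 (0.474 to 0.562) of theirs.

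The highest Pdgfa level of any named class was in the 33 lung neural-like cells, which carry the glial and neural crest markers Sox10 and Foxd3. They held 172 UMIs, or 975 CPM (835 to 1133), and 93.9% of them had a UMI. That was 3.54-fold (3.02 to 4.13) above lung pericyte-like and 4.03-fold (3.33 to 4.86) above brain OPC-like cells. The same cells held 1 Pdgfra, 4 Pdgfrb and 5 Pdgfb UMIs. Their own markers, summed, stood at 4469 CPM, and the matrix fibroblast and myofibroblast markers at 1310 and 522 CPM. The 49 lung epithelial-like cells were at 259 CPM (211 to 314), and their ratio to pericyte-like cells, 0.941 (0.764 to 1.15), included 1. Both classes were small, and the epithelial-like cluster mixed Sftpc, Krt17 and Cd74 among its leading genes.

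**Figure D2:**
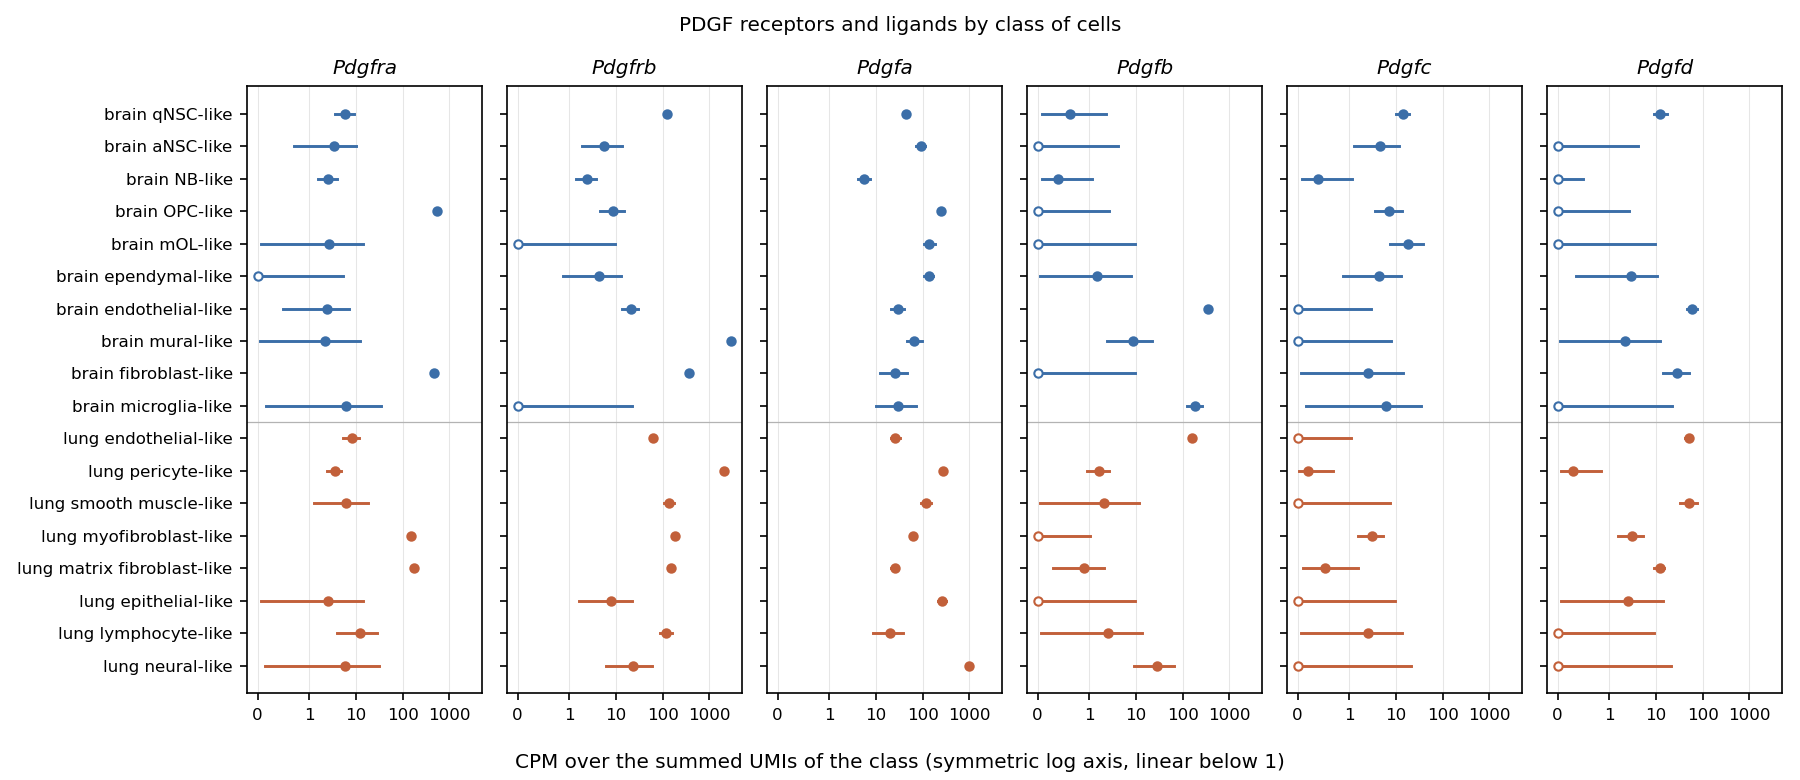
CPM of each PDGF gene over the summed UMIs of each named class in brain (blue) and lung (orange), on a symmetric log axis; bars are 95% counting intervals and open points have 0 UMIs. Pdgfrb peaks in brain mural-like (2895 CPM) and lung pericyte-like cells (2034 CPM), Pdgfb in endothelial-like cells, and Pdgfa in lung neural-like cells (975 CPM). Levels are compared along each panel, not between genes.

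Pdgfra was high in fibroblasts of both tissues and low in pericytes. Lung matrix fibroblast-like cells stood at 178 CPM (167 to 190) and myofibroblast-like cells at 152 CPM (139 to 165). Pericyte-like cells held 3.45 CPM (2.41 to 4.77), so these classes were 51.8-fold (37.1 to 74.3) and 44.1-fold (31.4 to 63.6) higher. With coarser clusters (resolution 0.4) these ratios were 5.07 and 9.74. The matrix fibroblast ratio was 33.7 in marker gates, and the myofibroblast ratio was 100.03 without the upper limit on genes and 90.4 with 30 principal components. Matrix fibroblast-like cells were 1.17-fold (1.06 to 1.30) above myofibroblast-like cells, an order that turns under the relaxed naming limit described below. A Pdgfra UMI was found in 64.7% and 44.5% of cells, at median depths of 8812 and 6224 UMIs, against 1.50% of pericyte-like and 2.45% of endothelial-like cells. After thinning, the shares were 15.5%, 12.7%, 0.300% and 0.985%. Of the 1007 Pdgfra UMIs in matrix fibroblast-like cells, 929 lay in cluster 2, led by Serpinf1, Mfap5 and Gpc3, at 179 CPM (168 to 191). Clusters 13 and 20 of that class held 245 CPM (190 to 312) and 57.6 CPM (28.8 to 103). Marker gates took in 300 of the 697 matrix fibroblast-like and 182 of the 569 myofibroblast-like cells. In brain, the 66 fibroblast-like cells were at 475 CPM (410 to 549), and lung matrix fibroblast-like cells were at 0.375 (0.320 to 0.441) of that.

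The largest store of Pdgfra in lung was in a cluster that was left unnamed. Cluster 3, with 433 cells led by Htra1, Prokr2, Nrcam, Pdgfra and Agt, held 1721 UMIs, which was 41.3% of the Pdgfra UMIs of lung. It stood at 558 CPM (532 to 585), 3.67-fold (3.34 to 4.05) above myofibroblast-like and 162-fold (116 to 232) above pericyte-like cells, and 92.1% of its cells had a UMI. Its markers scored highest for myofibroblast, but a neural marker (S100b) and no myofibroblast marker was among its 10 leading genes. A limit that tolerated this would have joined it to the myofibroblast-like class and raised the ratio of that class over pericyte-like cells from 44.1 to 97.8. The raised ratio is above the 51.8 of matrix fibroblast-like cells, so the order of these fibroblast classes depends on the limit. Values were computed under both limits after the clusters had been seen, and the stricter limit was kept for the values given here. Unnamed clusters 9, 14 and 15 held 572, 472 and 286 CPM.

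Fibroblast-like clusters held UMIs of both receptors. Pdgfrb stood at 149 CPM (140 to 160) in lung matrix fibroblast-like, 182 CPM (169 to 197) in myofibroblast-like and 368 CPM (310 to 433) in brain fibroblast-like cells. Lymphocyte-like cells stood at 120 CPM of Pdgfrb (88.8 to 159). That interval overlapped that of matrix fibroblast-like and not that of myofibroblast-like cells. The summed pericyte markers stood at 396 CPM in matrix fibroblast-like, 467 CPM in myofibroblast-like and 402 CPM in lymphocyte-like cells, with a UMI of 9, 9 and 8 of the 9 markers. In brain fibroblast-like cells the summed mural markers stood at 6191 CPM, with a UMI of 5 of the 8 markers, against 39691 CPM in mural-like cells. Their part in the Pdgfrb level of the fibroblast classes, and in the shares with both receptors below, was not tested. Without called doublets, Pdgfrb was 138 CPM (128 to 148) in matrix fibroblast-like and 155 CPM (143 to 169) in myofibroblast-like cells. In lymphocyte-like cells it was then 57.2 CPM (35.8 to 86.6), an interval that overlapped neither. After thinning, 14.04% of matrix fibroblast-like and 16.2% of myofibroblast-like cells kept a Pdgfrb UMI, against 7.44% of lymphocyte-like cells. Pericyte-like cells were 13.6-fold (12.7 to 14.6) above the matrix fibroblast-like and 11.1-fold (10.3 to 12.1) above the myofibroblast-like level. UMIs of both receptors were found in 39.0% of matrix fibroblast-like, 28.8% of myofibroblast-like and 62.1% of brain fibroblast-like cells. The products of the separate shares were 36.8%, 25.0% and 60.8%. In pericyte-like cells the share with both was 1.4%. Smooth muscle-like cells held 139 CPM of Pdgfrb (108 to 176), within counting error of matrix fibroblast-like cells, and 3 Pdgfra UMIs. Pdgfa in myofibroblast-like cells was 62.7 CPM (54.9 to 71.4), 0.228 (0.198 to 0.261) of the pericyte-like level, and in matrix fibroblast-like cells 25.1 CPM.

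**Figure D3:**
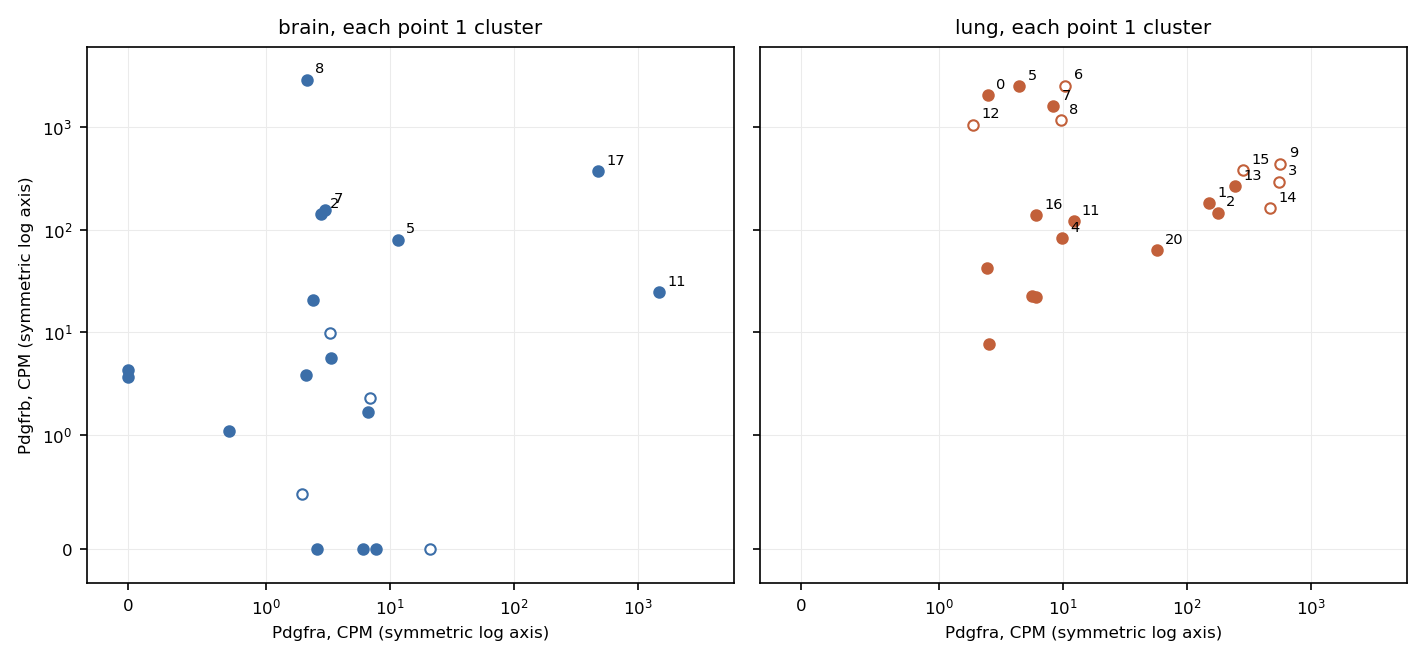
Pdgfra against Pdgfrb, both in CPM on symmetric log axes, with 1 point per cluster in brain (left) and lung (right); open points are unnamed clusters and numbers give clusters with over 100 CPM of Pdgfra or over 60 CPM of Pdgfrb. Lung clusters 0, 5, 6, 7, 8 and 12 exceed 1000 CPM of Pdgfrb with little Pdgfra. Lung clusters 1, 2, 3, 9, 13, 14 and 15 exceed 100 CPM of both, and the other lung clusters lie lower for one or both. Brain cluster 17 (fibroblast-like) exceeds 100 CPM of both, and brain cluster 11 is high in Pdgfra with little Pdgfrb.

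In the oligodendrocyte lineage of brain, receptor and ligand peaked in different clusters. OPC-like cells as a class held 530 CPM of Pdgfra (492 to 570), 90.6-fold (57.6 to 151) above qNSC-like cells, and 75.1% of the Pdgfra UMIs of the brain cells kept. That ratio was 42.5 without the upper limit on genes and 210.2 with each cell weighted equally. They also held 242 CPM of Pdgfa (217 to 269), 5.53-fold (4.53 to 6.78) above qNSC-like cells. The 2 clusters of the class, with median depths of 3200 UMIs (cluster 11) and 9456 UMIs (cluster 15), split these values. Cluster 11, led by Pdgfra, Cntn1, C1ql1 and Cspg4, stood at 1495 CPM of Pdgfra (1388 to 1607) with 87.9% of cells positive, and at 53.3 CPM of Pdgfa (34.8 to 78.1). Cluster 15, led by Enpp6, Gpr17 and Bmp4, genes known from committed, differentiating precursors, held 7.77 CPM of Pdgfra (3.12 to 16.0) and 344 CPM of Pdgfa (307 to 385). Cluster 11 was 192-fold (92.9 to 480) above cluster 15 for Pdgfra, and cluster 15 was 6.46-fold (4.32 to 10.0) above cluster 11 for Pdgfa. Of the 229 OPC-like cells, 10.5% had UMIs of both genes (6.83% to 15.2%), against 22.8% as the product of the separate shares. After thinning, the shares were 3.77% (1.64% to 7.30%) and 5.198%. In mOL-like cells, 1 Pdgfra UMI and 54 Pdgfa UMIs (140 CPM, 105 to 182) were found.

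**Figure D4:**
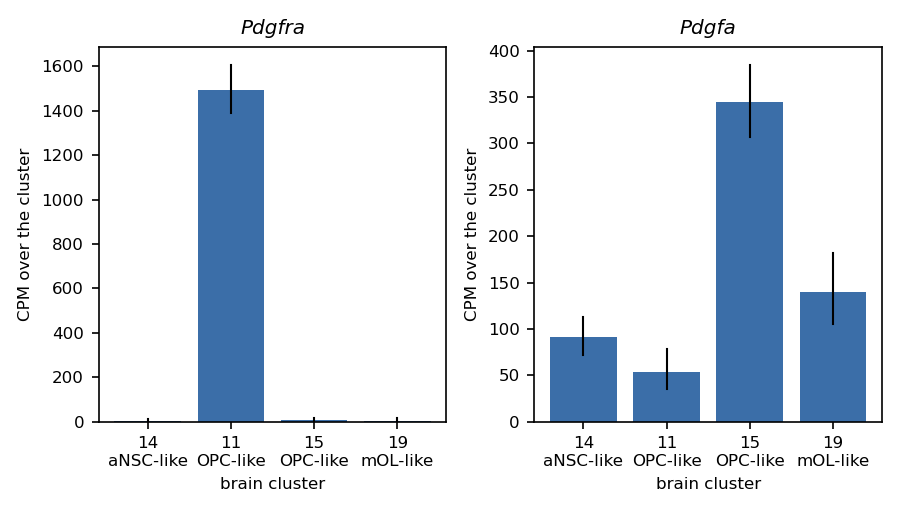
CPM of Pdgfra (left) and Pdgfa (right) over brain clusters 14, 11, 15 and 19; bars are levels and black lines 95% counting intervals, with 1 library. Pdgfra is high in cluster 11 alone (1495 CPM), and Pdgfa is highest in cluster 15 (344 CPM).

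The qNSC-like and aNSC-like classes of brain carried little Pdgfra. Clusters 2 and 7, led by genes known from astrocytes, made up 358 and 200 of the 836 qNSC-like cells. Values of the qNSC-like class therefore need not be those of stem cells alone. Pdgfra stood at 5.85 CPM (3.52 to 9.14) in qNSC-like and 3.37 CPM (0.695 to 9.86) in aNSC-like cells, beside 2.38 CPM (0.491 to 6.95) in endothelial-like cells. In these classes 1.44%, 2.80% and 0.912% of cells had a UMI, at median depths of 3644.5, 8772 and 3798 UMIs. Pdgfrb, in contrast, was found in 34.2% of qNSC-like cells and stood at 122 CPM (111 to 135). NB-like cells were at 2.34 CPM (1.39 to 3.70) and aNSC-like cells at 5.62 CPM (1.82 to 13.1). The qNSC-like level was 52.2-fold (32.6 to 89.0) above NB-like and 21.8-fold (9.24 to 67.4) above aNSC-like cells, while mural-like cells were 23.7-fold (21.2 to 26.5) higher still. After thinning, 11.4% of qNSC-like cells kept a Pdgfrb UMI, against 0.129% of NB-like cells and none of 106 aNSC-like cells. By cluster it stood at 142 CPM in cluster 2 (255 UMIs) and 157 CPM in cluster 7 (52 UMIs), the clusters led by genes known from astrocytes, and was lowest, at 80.0 CPM (90 UMIs), in the Thbs4 and Gfap cluster 5. The 8 mural naming markers, summed, were at 255 CPM in qNSC-like, 18.5 CPM in NB-like and 39691 CPM in mural-like cells. Of these markers, 7 had a UMI in qNSC-like cells. Their part in the Pdgfrb level was not tested. The 11 qNSC-like cells called as doublets carried 6 of the 397 Pdgfrb UMIs, and the others stood at 123 CPM. Pdgfa was 91.1 CPM (72.3 to 113) in aNSC-like cells, 2.08-fold (1.56 to 2.75) above qNSC-like and 16.3-fold (11.1 to 24.1) above NB-like cells. Ependymal-like cells held 134 CPM of Pdgfa (108 to 164) and no Pdgfra UMI in 118 cells.

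Pdgfc was close to the limit of detection. The brain cells kept held 78 UMIs and the lung cells 25. In brain, 45 of the 78 lay in qNSC-like cells, at 13.9 CPM (10.1 to 18.5), which was 35.5-fold (11.4 to 179) above NB-like cells. The highest level was in mOL-like cells, where 7 UMIs in 31 cells gave 18.1 CPM (7.27 to 37.3), an interval that overlapped that of qNSC-like cells. OPC-like cells were at 0.520 (0.233 to 1.05) of the qNSC-like level, an interval that included 1. In lung, 11 UMIs in myofibroblast-like cells gave 2.99 CPM (1.49 to 5.35), and 4 UMIs in unnamed cluster 12 gave 7.63 CPM (2.08 to 19.5). No Pdgfc UMI was found in endothelial-like cells of either tissue, where the intervals reached 2.93 CPM in brain and 1.05 CPM in lung.

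Genes that act around the receptors were followed in 4 lists with 45 genes. A gene was counted where one class was at least 4-fold above the other, among genes with at least 20 CPM in either. Between lung pericyte-like and endothelial-like cells, 2 of 4 measured members (Pdgfrb and Pdgfa) and 6 of 38 list genes were higher in pericyte-like cells, beside 7.75% of all 7523 genes. Pdgfb, Pdgfd and 2 list genes were higher in endothelial-like cells, beside 9.74%. In brain, Pdgfrb and 9 of 39 list genes were higher in mural-like cells, beside 9.19% of 7986 genes, and Pdgfb, Pdgfd and 1 list gene in endothelial-like cells, beside 8.72%. The median difference in log2(CPM + 10), a scale that shrinks the changes of low genes, was 0.00 for the list genes in lung and 0.58 in brain, against -0.03 and 0.03 for all genes tested. Cspg4, the NG2 proteoglycan that binds PDGF-AA, was 29.5-fold (19.9 to 45.7) higher in lung pericyte-like and 79.6-fold (45.0 to 156) higher in brain mural-like cells. Lrp1, a scavenger receptor that binds PDGFRβ, was 21.2-fold (16.2 to 28.3) and 36.5-fold (19.8 to 74.8) higher. Adaptor gene Nck2 was 5.96-fold (5.03 to 7.11) and 4.13-fold (2.16 to 8.10) higher. Spry4, an inhibitor of receptor tyrosine kinase signalling, was 30.6-fold (13.3 to 86.2) above endothelial-like cells in brain mural-like cells, and 1.57-fold (1.37 to 1.81) in lung pericyte-like cells. Ptprj, a phosphatase that acts on PDGFRβ, was 12.1-fold (8.02 to 18.9) higher in lung endothelial-like cells. Pcsk5, a proprotein convertase, was 31.7-fold (27.1 to 37.2) higher there.

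Against pericyte-like cells, lung matrix fibroblast-like cells had 1 of 3 measured members (Pdgfra) and 2 of 37 list genes higher, beside 7.56% of 7197 genes. Pdgfrb, Pdgfa and 7 list genes were higher in pericyte-like cells, beside 7.52%. Myofibroblast-like cells had Pdgfra and 3 of 38 list genes higher, beside 6.22% of 7252 genes, and Pdgfrb, Pdgfa and 4 list genes lower, beside 5.81%. The median differences in log2(CPM + 10) of the list genes were -0.55 and -0.19, against -0.29 and -0.03 for all genes tested. Pcsk6, a related convertase, was 10.3-fold (7.05 to 15.4) and 10.2-fold (6.91 to 15.5) higher in matrix fibroblast-like and myofibroblast-like cells. Nck2 was 23.3-fold (18.0 to 30.8) and 9.59-fold (7.79 to 11.9) higher in pericyte-like cells. In brain, OPC-like cells had 2 of 3 measured members (Pdgfra and Pdgfa) and 4 of 34 list genes higher than qNSC-like cells, beside 8.5% of 8339 genes. Pdgfrb and 3 list genes were higher in qNSC-like cells, beside 9.64%. Over qNSC-like cells, Pdgfra was 255.4-fold for cluster 11 alone and 1.33-fold for cluster 15 alone. Pdgfa was 1.22-fold for cluster 11 alone and 7.87-fold for cluster 15 alone. The median difference in log2(CPM + 10) of the list genes was 0.15, against 0.29 for all genes tested. Fyn, a Src-family kinase, was 23.8-fold (21.4 to 26.6), Cspg4 61.0-fold (35.9 to 113) and Ptprj 14.5-fold (10.2 to 21.1) higher in OPC-like cells.

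The genes with the pattern most like each member were taken from 8573 genes across the 12 named classes with at least 100 cells, by Pearson's r of log2(CPM + 10). These r values describe classes that share libraries and carry no test. For Pdgfrb they were Notch3 (r = 0.96), Vasn (0.95) and Sh3d21 (0.95). For Pdgfb they were C130074G19Rik (0.996), Flt4 (0.996) and Cldn5 (0.996). Pdgfd was followed by Wfdc1 (0.97), Tmem252 (0.95) and Sox7 (0.93). Pdgfra was followed by Plekhf1 (0.90), Ntrk3 (0.88) and Tmem167 (0.88), Pdgfa by Dtd2 (0.87), Nfu1 (0.83) and Fdx1l (0.82), and Pdgfc by Fam228b (0.93), Cmtm5 (0.93) and Tmem229a (0.92). Notch3 and Cldn5 were naming markers of pericyte or mural and endothelial cells, and Cmtm5 of lung neural cells. Among the members themselves, Pdgfb and Pdgfd had r = 0.90 and Pdgfra and Pdgfrb r = -0.07.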

How the data were processed

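Nes-GFP+ cells of 1 brain and 1 lung library were prepared with trypsin, sorted and captured on the 10x Chromium (3′ v3 kit). Per the labels, the authors made the deposited counts, whole UMIs per gene and cell on mm10, with bcl2fastq 2.19.1.403, UMI-tools 1.0.0, STAR 2.7.1a and featureCounts 1.6.4. Total UMIs over all barcodes were 26221173 in brain and 36816962 in lung. Cells with over 200 and under 4000 genes and under 40% mitochondrial counts were kept, following the study's methods. The cell numbers that the study states equal all deposited barcodes, so the cells used here are fewer. Each library was clustered in Seurat 5.3.0 (R 4.3.3; scaling to 10000, 2000 variable genes less cell cycle, PDGF and pathway genes, 20 principal components, resolution 0.8).

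A cluster took the name of the best marker list where its score (mean log2 excess over clusters) was at least 1 and led by 0.5, and at least 3 markers were found in 20% of its cells. It stayed unnamed where markers of another class outnumbered its own among its 10 leading genes, or where it was shallow, with a median UMI count under the library's divided by 3, and had no own marker there. The score thresholds were known from earlier results of these data. The limit on leading genes was set after the clusters had been seen: values were computed first under a relaxed limit (2 or more in excess) and then under the stricter one kept here, and the choice renames 1 cluster, lung cluster 3, whose leading genes include Pdgfra. The members and lists were likewise chosen with earlier results of these data known. Scrublet, run with an expected doublet rate of 0.06 (a setting, as a fraction of cells), called 44 brain (1.06%) and 74 lung cells (1.32%) as doublets, which were kept except in an alternative. Any doublets that were not called remain in every value given without doublets.

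UMIs were summed per class and given as CPM with exact Poisson intervals, ratios with exact conditional binomial intervals, and shares with Clopper-Pearson intervals (scipy 1.17.1). All cover counting error only. Where a class had 0 UMIs, no fold was given unless as a bound from 3 counts. For thinned shares, cells under 1000 UMIs were left out. The fold calls and intervals were tested on simulated data. No test between groups was made because each group had 1 library. Named genes were the 6 members, list genes at least 4-fold different, and the 3 genes most like each member. RefSeq windows were matched for 4 of the 6 members.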

Additional observations from a re-analysis of the deposited data

How the results depend on the processing

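No paired analysis was possible because each tissue had 1 library. For 12 ratios, 139 alternatives were run. None reversed a direction, 111 moved the ratio by less than its interval, and 28 moved it further; unless said otherwise, the cause was not tested. Pdgfrb in lung pericyte-like over endothelial-like cells (33.2) was 19.99 without the cap on genes detected, 111 with called doublets removed, 69.4 in marker gates and 41.9 with each cell weighted equally. Pdgfrb in brain mural-like over endothelial-like cells (140) was 436 in marker gates and 240 with equal weights. With over 1000 genes per cell, Pdgfb in lung endothelial-like over pericyte-like cells (98.9) was 52.7 and in lung over brain endothelial-like cells (0.473) was 0.415. Pdgfra in matrix fibroblast-like over pericyte-like cells (51.8) was 5.07 at resolution 0.4, 33.7 in marker gates and, chosen after seeing the data, 16.7 for cluster 20 alone. For myofibroblast-like over pericyte-like cells, Pdgfra (44.1) was 100.03 and Pdgfa (0.228) 0.187 without the gene cap, 9.74 and 0.177 at resolution 0.4, and 90.4 and 0.167 with 30 principal components. Pdgfa was 0.190 in marker gates. The relaxed naming limit, run after seeing the data, adds lung cluster 3 to the class and gave 97.8 and 0.168. For OPC-like over qNSC-like cells, Pdgfra (90.6) was 42.5 and Pdgfa (5.53) 7.43 without the gene cap. Pdgfra was 210.2 with equal weights. By cluster, chosen after seeing the data, these were 255.4 and 1.22 for cluster 11 and 1.33 and 7.87 for cluster 15. Pdgfrb in lung pericyte-like over brain mural-like cells (0.703) was 0.660 at resolution 0.4. Thinning to 2000 rather than 1000 UMIs moved 25 of 48 shares of cells beyond their intervals, at a greater depth by construction. With 1 library per tissue, no alternative speaks to the spread between mice, and genes with few UMIs, such as Pdgfc, are limited by depth.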
